A study of Drosophila melanogaster with 12 samples.

Results

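In wings of Drosophila melanogaster, 189 genes known only by a CG number were higher in wild type after puparium formation than before it, and were already higher before it where the ecdysone receptor EcR was targeted by RNAi. They were chosen by 3 values read from the RNA table: a CG number as the symbol, a mean over the 8 RNA libraries of 10 normalized counts or more, and at least 1 for each of S and M. S is the wild-type mean of log2(normalized count + 1) at +6 h minus that at -6 h, and M is the EcR-RNAi mean at -6 h minus the wild-type mean at -6 h. Of 15240 genes in the table, 7715 have a CG number, 3410 of these reach the mean, 600 of these have S of at least 1, and 189 of these have M of at least 1. RefSeq Release 6 lists all 189 as protein-coding. It still gives 152 the symbol of the table, gives 5 another CG number and gives 32 a name, so "unnamed" holds for most and not for all.

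Wings came from female animals kept at 25 degrees C, with 2 libraries in each of 4 groups. At -6 h relative to puparium formation the animals were wandering larvae, and at +6 h they had been staged as white prepupae. Wild-type animals are labelled +/+ and carry no transgene in the labels. EcR-RNAi animals are yw/yw and carry Vg-GAL4, UAS-Flp and the cassette Tub>>CD2>>GAL4, with UAS-GFP and UAS-EcR-RNAi[104]. In such a system the GAL4 of the vestigial driver turns on a recombinase, which switches on a tubulin-driven GAL4 in the cells where it acts and in their descendants, so the RNAi depends on where and when the driver was active. Strain background and transgenes differ between the genotypes together with EcR, and the parts these play cannot be told apart. CUT&RUN libraries for tagged EcR belong to the same study and are not analysed here.

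Ecdysone is the steroid hormone whose pulses time insect moults and metamorphosis. Its receptor is a heterodimer of EcR and Ultraspiracle, which represses targets when no hormone is bound and activates them when it is, so loss of EcR can raise some targets and lower others. Around puparium formation the wing epithelium everts, detaches from the larval cuticle and lays down the matrix of the pupal cuticle.

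For EcR itself, wild type had 2194 and 1924 normalized counts at -6 h and EcR-RNAi had 1634 and 1307. After puparium formation it was at 5764 and 6852 in wild type and at 2201 and 2081 in EcR-RNAi. The groups did not overlap at either stage, and EcR RNA remained present in every EcR-RNAi library. The log2 difference was -1.55 ± 0.14 (standard error) at +6 h, with a limma adjusted p of 1.0e-05. At -6 h it was -0.49 ± 0.14, with a limma adjusted p of 0.0449. The call at -6 h ended without wild-type replicate 1 (limma adjusted p = 0.193), without wild-type replicate 2 (0.0916) or without EcR-RNAi replicate 2 (0.24), and without either EcR-RNAi library of +6 h (0.0884 and 0.0898). "Without EcR" therefore goes beyond what these bulk libraries show at the stage where M was measured. EcR RNA was present in both EcR-RNAi libraries there, at levels below both of wild type. Its level in the targeted cells alone was not measured.

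Depth was 6444939 to 10016236 recovered reads per library. On the first principal component, with 67.4% of the variance, lay wild type at -63.6 and -65.1 before and at 77.1 and 70.1 after puparium formation. EcR-RNAi stood between these, at -44.0 and -29.5 and then at 27.9 and 27.1. All 11 wing disc epithelium markers, among them vg, nub and wg, were measured in every group, with sums of 23535 to 32123 normalized counts. Midgut and fat body markers were higher in EcR-RNAi at -6 h, the group that M rests on. The 11 midgut markers in the table summed to 1414 and 377 normalized counts there and to at most 5.81 in each other library. Their sums at +6 h in EcR-RNAi were 1.23 and 0, with 10 of 11 at 0 reads in that group. The 7 fat body markers summed to 1994 and 4883 in EcR-RNAi at -6 h, against 237 to 635 in wild type of either stage and 850 and 979 in EcR-RNAi at +6 h. Summed tracheal markers (5 genes) ran from 13697 to 15735 in wild type and 22049 to 25735 in EcR-RNAi at -6 h, and from 24967 to 48809 at +6 h. None of the 5 was called between genotypes at -6 h, and their median log2 difference was 0.04. The genes serp (3433 and 2715 in wild type, 5880 and 8903 in EcR-RNAi) and verm (3709 and 3373, then 6782 and 9580) were higher in level there. Both meet the limits on S and M. In trh and vvl the genotypes overlapped at -6 h, and btl was lower (80.3 and 77.5, then 45.8 and 55.7). The part of these tissues in the members' levels was not tested. In bulk wings, fewer cells of a type and less RNA per cell cannot be told apart.

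The values that chose the members are a description and carry no test. S had a median of 4.95 and ran from 1.02 to 9.56, and M had a median of 1.95 and ran from 1.01 to 5.29. In the median member M was 42.2% of S, and in 22 members M was at least as large as S. No read of 12 members was found in wild type at -6 h, so their S and M depend on the added count. With these 12 at a floor of 3 reads over the group, the medians were 4.91 for S and 1.93 for M. The bound on M was under 1 for 5 of the 12, the lowest being 0.12, so reads do not show that these 5 reach the limit, while all 12 bounds on S were at least 1.82. Just inside the limit on S lay CG32068 (1.02), CG15546 (1.05) and CG6426 (1.08), and just outside lay CG13722 (1.00 after rounding), CG4382 (0.96) and CG9782 (0.87). Inside the limit on M lay CG31100 (1.01), CG7367 (1.02) and CG9691 (1.03), and outside it CG31547 (1.00 after rounding), CG12868 (0.98) and CG7530 (0.98). For the mean, CG2121 (10.7), CG34196 (11.6) and CG4288 (12.4) were the lowest kept, and CG4408 (9.54), CG16926 (9.36) and CG1722 (9.33) the highest left out.

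Together the members took 0.155% and 0.135% of all normalized counts before puparium formation in wild type, and 0.516% and 0.943% in EcR-RNAi at that stage. At +6 h they took 6.17% and 5.38% in wild type and 3.24% and 3.32% in EcR-RNAi. Both EcR-RNAi libraries at -6 h lay above both of wild type for 186 members, and the other 3 overlapped. That contrast chose them, and the same held for 29.9% of all 7775 genes with a mean of at least 10. By limma, 114 members were called higher in EcR-RNAi at -6 h, where 7.51% of all genes tested were called higher and 3.36% lower, and nothing is read from that count.

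**Figure D1:**
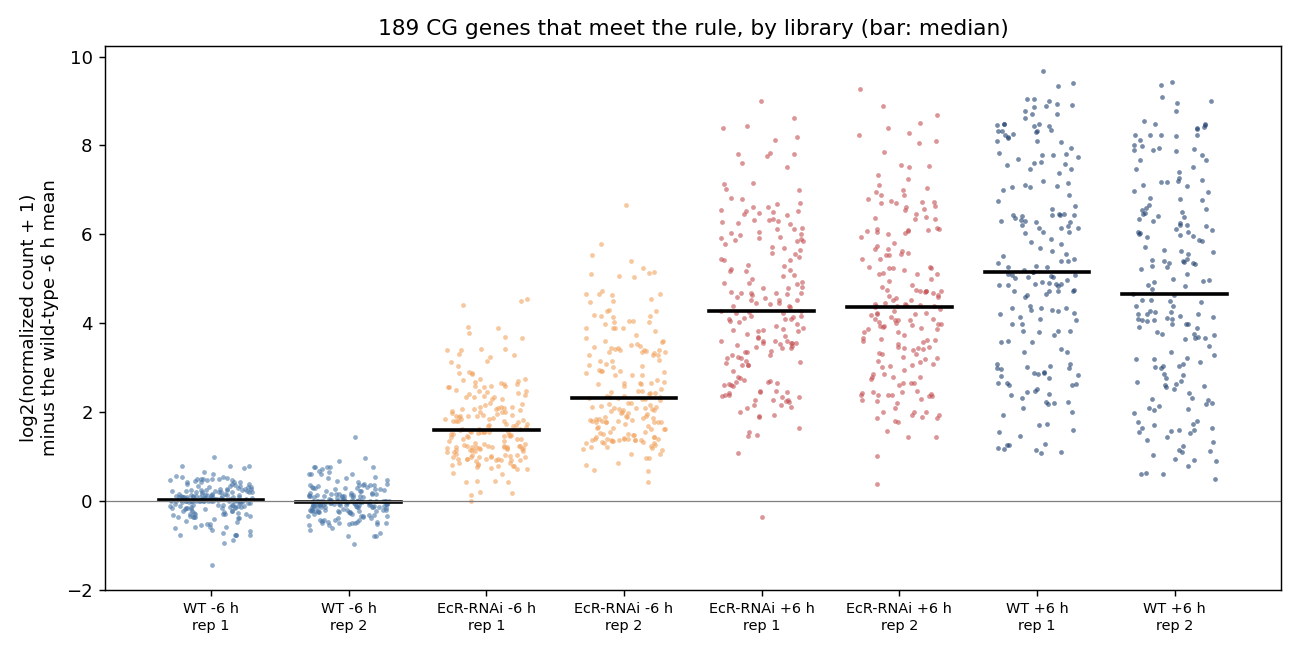
Each point is 1 of the 189 members in 1 library, as log2(normalized count + 1) minus the mean of wild type at -6 h, and bars are medians. EcR-RNAi had medians of 1.59 and 2.32 at -6 h and of 4.28 and 4.37 at +6 h, and wild type of 5.15 and 4.65 at +6 h. The EcR-RNAi replicates stand farther apart at -6 h than at +6 h.

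EcR-RNAi at +6 h entered neither S nor M, but it counts towards the mean of the 8 libraries. Without it, 5 members (CG14327, CG15649, CG2121, CG31871 and CG9521) fall under the mean of 10, and 3 of them are among those called higher in each of the tests described next. Without wild type at +6 h, 14 members fall under it, 7 of which are among those called lower at +6 h. These had to be high in the group that kept them. In EcR-RNAi most members stood higher at +6 h than at -6 h. In the test of +6 h against -6 h within EcR-RNAi, 127 of 189 members (67.2%) rose and 0 fell at a limma adjusted p under 0.05, against 12.1% and 3.88% of all genes tested. At an unadjusted limma p under 0.05 the member count that fell was 1, and edgeR and DESeq2 called 0 lower. The median log2 difference was 2.26 over all 189 members, where 186 were positive, and -0.00 over all genes tested. Both libraries at +6 h lay above both at -6 h for 178 members, against 30% of all genes tested. The EcR-RNAi libraries at -6 h entered M, so the choice of members leaned this difference downwards. The count of members that rose was 81 without replicate 1 and 77 without replicate 2 of EcR-RNAi at +6 h. Over all genes the calls of this comparison were increases in 75.7% of cases, 46.9% under upper-quartile scaling and 45.3% under quantile scaling, whereas 124 and 132 members were called higher under those scalings. The labels do not say whether replicates are separate animals, so all p-values here measure only the spread between libraries.

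Against wild type at the same stage the members divided. At +6 h, 80 of 189 (42.3%) were lower in EcR-RNAi and 25 (13.2%) were higher, with limma adjusted p under 0.05, and 84 were not called. Of all genes tested, 21.6% were lower and 21.3% were higher. The median log2 difference was -0.94 over the members, 64 of which were positive, and 0.00 over all genes tested. Both EcR-RNAi libraries lay below both wild-type libraries for 109 members and above them for 51, against 36.9% and 36.6% of all genes tested. Wild type at +6 h entered S, which leaned this difference downwards. The count of higher members was 15 without wild-type replicate 2, and 16 and 12 without EcR-RNAi replicates 1 and 2 of that stage. Of all calls in this comparison, 49.6% were increases, and 64.4% under upper-quartile scaling. That scaling moved the median gene by 0.15 (log2), and 77 members were then lower and 29 higher.

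Taking both tests, 70 members rose with stage in EcR-RNAi and were below wild type at +6 h, against 7.24% of all genes tested. Another 43 rose with stage and were not called against wild type (3.73% of all genes), and 14 rose and were above it (1.16%). Without a called change with stage, 10 were below wild type (14% of all genes), 11 were above (17.8%) and 41 were called in neither test (52.2%). The mean in EcR-RNAi at +6 h was 49.8% of that in wild type in the median member. It was under 25% in 46 members, 25 to 50% in 49, 50 to 100% in 32, 100 to 200% in 33 and over 200% in 29. For 100 members the 4 groups formed a series with no overlap, from wild type at -6 h through EcR-RNAi at -6 h and EcR-RNAi at +6 h to wild type at +6 h. The same order held for 6.47% of all genes tested, and S and M fix part of it in the members.

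**Figure D2:**
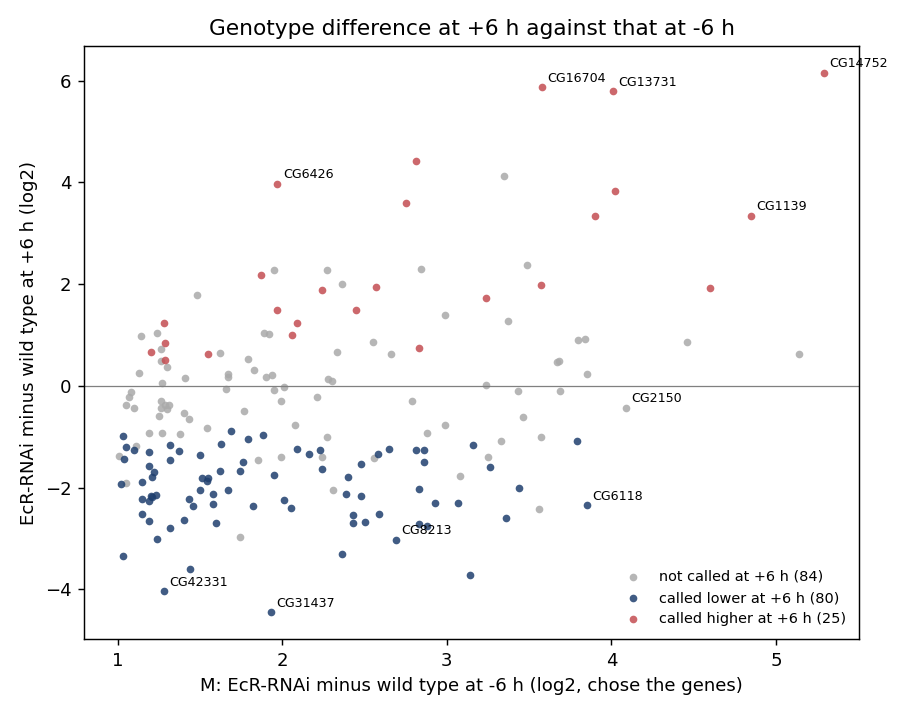
Each point is a member, placed by M, the log2 difference between genotypes at -6 h that chose it, and by the log2 difference between genotypes at +6 h. Members called lower (80) lie between -4.45 and -0.88 and those called higher (25) between 0.51 and 6.15, and both kinds occur up to an M of 3.85.

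M and the genotype difference at +6 h come from separate libraries. Across the 189 members their Spearman correlation was 0.24, and across all genes tested it was 0.14; genes share libraries and are not independent. Among the 100 members with M of 1 to 2, 47 were lower and 8 were higher at +6 h. With M of 2 to 3 (52 members) 25 were lower and 8 were higher, and with M of at least 3 (37 members) 8 were lower and 9 were higher. Of all genes tested, 21.6% were lower and 21.3% higher, and the members with M of at least 3 lay near these shares. By S, which shares wild type at +6 h with the test, 22 of the 49 members with S of 1 to 3 were higher and 5 lower, and 1 of the 70 members with S of at least 6 was higher and 43 lower.

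Of the 10 members with the highest mean over the 8 libraries, 8 belonged to the lower class. The lower share was 42.3% of all members and 21.6% of all genes tested. Wild type at +6 h entered both this mean and the test, so nothing is read from the 8 of 10. CG6118, which had the highest mean over the libraries, was at 130 and 115 (normalized counts, as for all levels that follow) in wild type and 1310 and 2398 in EcR-RNAi at -6 h, and at 79474 and 81119 in wild type and 15835 and 15668 in EcR-RNAi at +6 h. The 4 groups did not overlap, and EcR-RNAi lay between the wild-type stages at both times. At +6 h CG6118 was lower in EcR-RNAi by a log2 difference of -2.35 ± 0.25 (limma adjusted p = 1.8e-04), and it rose with stage in EcR-RNAi by 3.15 ± 0.25 (limma adjusted p = 1.0e-04).

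The serine protease gene CG8213 (flz) was at 96.8 and 67.3 in wild type and 443 and 622 in EcR-RNAi at -6 h, and at 38260 and 41757 in wild type and 5298 and 4584 in EcR-RNAi at +6 h. Each group stood clear of the next. Its log2 difference between genotypes at +6 h was -3.02 ± 0.20 (limma adjusted p = 1.2e-05), and its rise in EcR-RNAi was 3.23 ± 0.20 (limma adjusted p = 2.0e-05). CG6026 took the same order, with 65.8 and 81.4 in wild type and 497 and 776 in EcR-RNAi at -6 h, then 25844 and 27950 in wild type and 6026 and 4937 in EcR-RNAi. It was lower by -2.30 ± 0.21 on the log2 scale at +6 h (limma adjusted p = 6.8e-05).

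CG12964 was higher at the start, at 958 and 628 in wild type and 4067 and 5809 in EcR-RNAi at -6 h, and reached 32625 and 28935 in wild type and 13212 and 12583 in EcR-RNAi at +6 h. CG17786 was at 211 and 172 in wild type and 559 and 977 in EcR-RNAi before, and at 14958 and 16367 and at 4425 and 4900 after puparium formation. In both genes the 4 groups kept the order of CG6118 without overlap. The log2 differences between genotypes at +6 h were -1.25 ± 0.22 for CG12964 (limma adjusted p = 0.00184) and -1.75 ± 0.25 for CG17786 (limma adjusted p = 0.00105).

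CG9411, CG43333 and CG4702, also abundant, had the same order with less certain calls. CG9411 was at 159 and 160 in wild type and 1053 and 2876 in EcR-RNAi at -6 h, then at 67157 and 47312 in wild type and 14862 and 13268 in EcR-RNAi. CG43333 was at 404 and 352, then at 844 and 1892, and at +6 h at 32101 and 28029 in wild type and 9848 and 9025 in EcR-RNAi. CG4702 was at 37.8 and 35.9, then at 172 and 478, and at +6 h at 19891 and 18812 in wild type and 3405 and 4483 in EcR-RNAi. No groups overlapped in any of the 3. Limma adjusted p values at +6 h were 0.0281 for CG9411, 0.014 for CG43333 and 0.0199 for CG4702. The first call ended without either wild-type library of -6 h (0.0586 and 0.0588), and without any one of the 4 libraries of +6 h (0.0691 to 0.122). The CG43333 call ended without wild-type replicate 1 (0.0734) or 2 (0.0526) or EcR-RNAi replicate 2 (0.0634) of +6 h, and the CG4702 call without any of those 4 (0.059 to 0.0872).

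**Figure D3:**
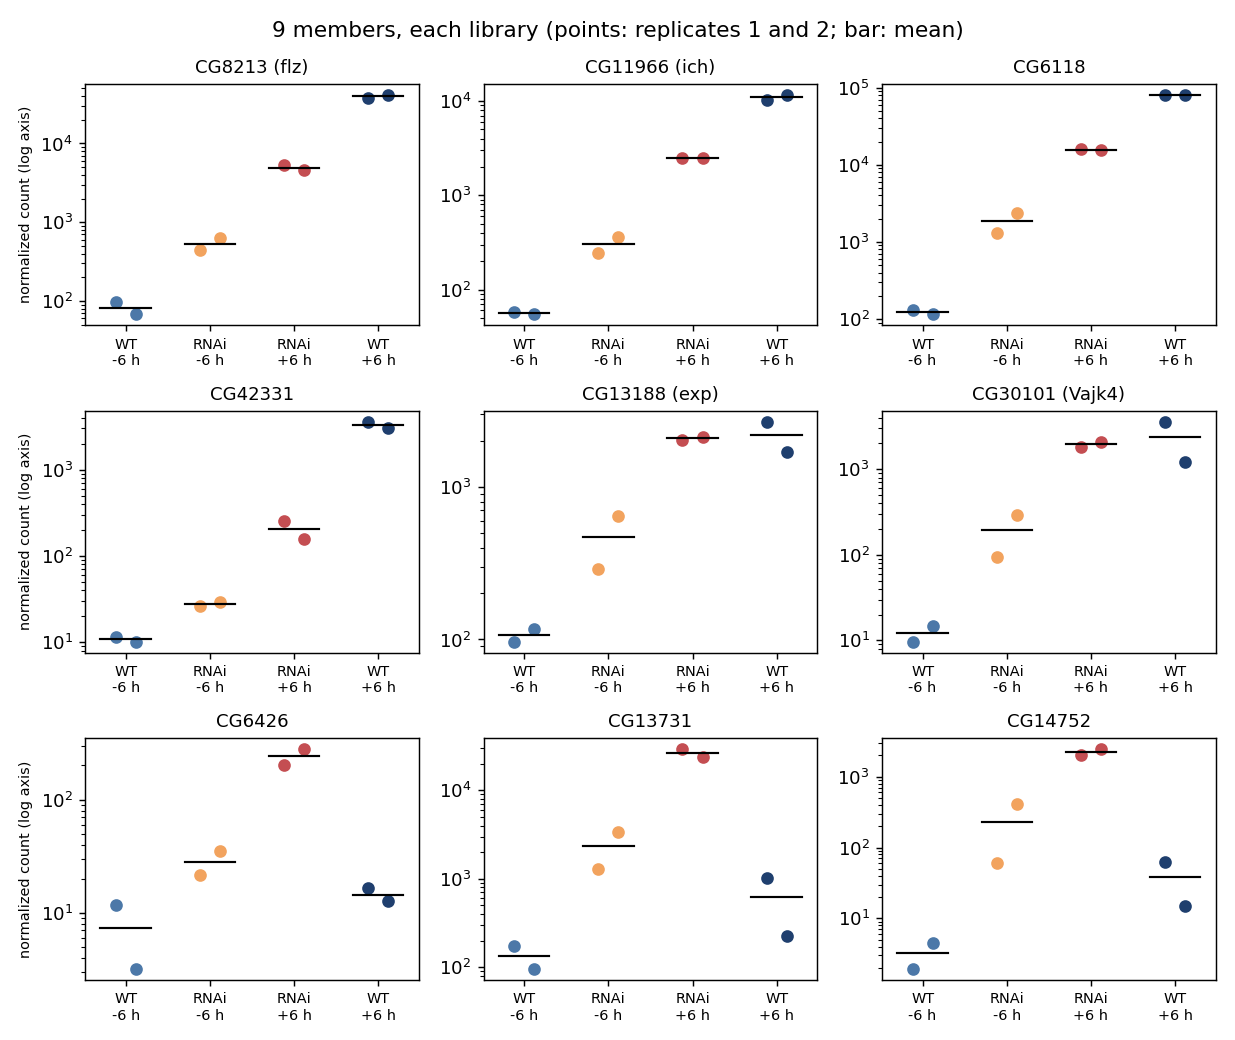
Normalized counts (log axis) of 9 members in each library, with replicates 1 and 2 as points and their mean as a bar. In CG8213 (flz), CG11966 (ich), CG6118 and CG42331 EcR-RNAi at +6 h lies below wild type of that stage, in CG13188 (exp) and CG30101 (Vajk4) it lies within the span of the wild-type replicates, and in CG6426, CG13731 and CG14752 it lies above every other group.

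The members with the largest called deficits at +6 h had reached little of the wild-type level. CG31437 was at 353 and 388 in wild type and 13.5 and 18.7 in EcR-RNAi at +6 h, and at 0 and 0.641 and at 5.85 and 2.46 at -6 h. CG42331 was at 3581 and 3068 in wild type and 257 and 156 in EcR-RNAi at +6 h, and at 11.6 and 10.2 and at 26.3 and 29.5 at -6 h. In both, wild type at +6 h stood far above the other 3 groups. CG31437 reached the mean of 10 only through that group, so its log2 difference of -4.45 ± 0.47 between genotypes is given without a test. CG42331 was lower by -4.04 ± 0.22 (limma adjusted p = 3.6e-07).

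CG14110 had no read in wild type at -6 h, stood at 4.87 and 12.3 in EcR-RNAi at that stage, and was at 474 and 542 in wild type and 41.8 and 33.5 in EcR-RNAi at +6 h. CG15239 was at 8.71 and 12.2 in wild type and 23.4 and 37.7 in EcR-RNAi at -6 h, and at 2519 and 2659 in wild type and 192 and 235 in EcR-RNAi at +6 h. CG17264 was at 2.9 and 2.56 and at 8.77 and 4.91 at -6 h, and at 506 and 656 in wild type and 52.9 and 58.2 in EcR-RNAi at +6 h. All 3 kept the group order with no overlap. The log2 differences at +6 h were -3.72 ± 0.42, -3.60 ± 0.23 and -3.35 ± 0.32, with limma adjusted p values of 4.5e-05, 1.3e-06 and 1.6e-05. RefSeq places CG31437 over part of Fur1, CG42331 over part of CG5805 and CG17264 over part of alpha4GT1. How the counting treated strand is not stated in the labels, so reads of such overlaps cannot be assigned with certainty, which holds for 84 of the 189 members. Among the members described here these also include CG17786 (over part of twin), CG14417 (kirre), CG5928 (Tsp5D), IRSp53 (CG6216), Sirup (Wwox), snsl (CG3036), Mrp5 (CG4686), Nepl21 (CG33203), Vajk1 (Ance-3), hng3 (emc), Cipc (CG14556) and exp (PI31).

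Among the 32 members that RefSeq names, 9 were lower and 8 higher than wild type at +6 h, and 19 rose with stage in EcR-RNAi. Of all genes tested, 21.6% were lower and 21.3% higher at +6 h, and 12.1% rose with stage. The counts at +6 h lie near these shares, and nothing is read from them. Genes described in this and the following paragraphs for their RefSeq name were chosen after their values were seen. CG11966 (ich), a zinc finger transcription factor gene with a role in the apical matrix of the trachea, was at 58.1 and 54.4 in wild type and 245 and 364 in EcR-RNAi at -6 h, and at 10184 and 11716 in wild type and 2494 and 2490 in EcR-RNAi at +6 h. No groups overlapped. It was lower by -2.13 ± 0.16 (log2, limma adjusted p = 7.8e-06) at +6 h and rose by 3.06 ± 0.16 (limma adjusted p = 1.8e-06) in EcR-RNAi.

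CG32082 (IRSp53) encodes an I-BAR protein that links membrane curvature and actin. It was at 322 and 278 in wild type and 673 and 697 in EcR-RNAi at -6 h, and at 5901 and 5761 in wild type and 1832 and 2065 in EcR-RNAi at +6 h. Replicates lay close together in every group, and the log2 difference at +6 h was -1.58 ± 0.11 (limma adjusted p = 1.8e-06). CG7224 (Sirup) went from 137 and 102 to 11410 and 11105 in wild type and from 422 and 580 to 2084 and 2188 in EcR-RNAi. CG31475 (myd) went from 106 and 104 to 1818 and 1772 in wild type and from 324 and 408 to 883 and 865 in EcR-RNAi. Both were lower at +6 h, by log2 differences of -2.40 ± 0.17 (limma adjusted p = 5.0e-06) and -1.04 ± 0.12 (limma adjusted p = 5.9e-05).

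The remaining named members of the lower class were scarcer. CG30438 (Ugt50B3), a UDP-glycosyltransferase gene, was at 516 and 400 in wild type and 148 and 176 in EcR-RNAi at +6 h, having been at 12.6 and 17.9 and at 42.9 and 66.3. CG4562 (Mrp5), an ABC transporter gene, was at 104 and 97.6 and at 45.5 and 37.5 at +6 h, having been at 5.81 and 3.2 and at 32.2 and 18. CG2837 (snsl), a gene of the cuticle barrier, was at 292 and 149 and at 36.9 and 58.2 at +6 h, having been at 1.94 and 0.641 and at 2.92 and 5.73. In each gene both EcR-RNAi libraries lay below both of wild type at +6 h. Limma adjusted p values were 7.1e-04, 0.0161 and 0.00443. The Mrp5 call ended without any one of the 4 libraries of +6 h (0.0522 to 0.107), and the snsl call without wild-type replicate 1 (0.065) or EcR-RNAi replicate 1 (0.0533).

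CG14526 (Nepl21), a neprilysin-like peptidase gene, went against the stage rise. It was at 7.74 and 3.2 in wild type and 10.7 and 27 in EcR-RNAi at -6 h, and at 26.8 and 24.1 in wild type and 3.69 and 6.91 in EcR-RNAi at +6 h. Its level in EcR-RNAi at +6 h lay below that at -6 h in both libraries. It reached the mean of 10 only through wild type at +6 h, so its log2 difference of -2.12 ± 0.57 from wild type at that stage is given without a test. The difference between stages in EcR-RNAi was -1.57 ± 0.57 with a limma adjusted p of 0.0939.

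Other members were not called against wild type at +6 h, and the 5 largest called stage rises in EcR-RNAi were among these: CG5080, CG14397, CG10264, CG5928 and CG16886. CG5080 was at 1.94 and 1.92 in wild type and 8.77 and 4.09 in EcR-RNAi at -6 h, and at 553 and 318 in wild type and 204 and 237 in EcR-RNAi at +6 h. CG5928 was at 0.968 and 3.84 and at 5.85 and 13.1 at -6 h, and at 228 and 129 in wild type and 186 and 217 in EcR-RNAi at +6 h. In CG5928 the genotypes overlapped at +6 h, and in CG5080 they did not. They rose with stage in EcR-RNAi by 4.97 ± 0.36 (limma adjusted p = 6.1e-06) and 4.36 ± 0.50 (limma adjusted p = 3.4e-04) on the log2 scale. At +6 h their log2 differences from wild type were -0.93 ± 0.36 (limma adjusted p = 0.0591) and 0.23 ± 0.50 (limma adjusted p = 0.752).

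CG10264 (Jhbp4), of the juvenile hormone binding protein family, was at 0 and 0.641 in wild type and 3.9 and 17.2 in EcR-RNAi at -6 h, and at 671 and 308 in wild type and 234 and 242 in EcR-RNAi at +6 h. Its EcR-RNAi replicates at -6 h differed more than 4-fold. It rose in EcR-RNAi by 4.66 ± 0.65 (limma adjusted p = 0.00269), by 3.71 without EcR-RNAi replicate 1 and by 5.61 without replicate 2 of -6 h. RefSeq places it over part of Jhbp5, so the reads of these neighbours are uncertain.

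CG16886 (Vajk1) and CG30101 (Vajk4) carry names of the same family. Vajk1 was at 0 and 1.92 in wild type and 5.85 and 8.19 in EcR-RNAi at -6 h, and at 386 and 83.9 in wild type and 133 and 182 in EcR-RNAi at +6 h. Vajk4 was at 9.68 and 14.7 and at 95.5 and 291 at -6 h, and at 3581 and 1222 in wild type and 1815 and 2105 in EcR-RNAi at +6 h. In both, the EcR-RNAi libraries at +6 h fell between the wild-type replicates of that stage. Vajk1 rose in EcR-RNAi by 4.30 ± 0.78 (limma adjusted p = 0.0103), a call that ended without either EcR-RNAi library of -6 h (0.092 and 0.0651) or EcR-RNAi replicate 2 of +6 h (0.064). For Vajk4 the difference was 3.54 ± 0.78 with a limma adjusted p of 0.0512.

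CG14397 was at 0.968 and 0.641 in wild type and 0.975 and 18 in EcR-RNAi at -6 h, and at 350 and 141 in wild type and 143 and 176 in EcR-RNAi at +6 h. In EcR-RNAi at -6 h replicate 2 stood above wild type and replicate 1 stood level with it. Its rise in EcR-RNAi, 4.70 ± 1.08 with a limma adjusted p of 0.0389, was 3.07 without EcR-RNAi replicate 1 and 6.33 without replicate 2 of -6 h, and the call ended without either wild-type library of -6 h (0.11 and 0.111) or either EcR-RNAi library of +6 h (0.132 and 0.14).

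CG2150 was the abundant member nearest to wild type. It was at 29 and 46.8 in wild type and 310 and 1328 in EcR-RNAi at -6 h, and at 25656 and 11400 in wild type and 12646 and 12658 in EcR-RNAi at +6 h. Genotypes overlapped at +6 h, where the log2 difference was -0.43 ± 0.85 (limma adjusted p = 0.728). The rise in EcR-RNAi was 4.30 ± 0.85 (limma adjusted p = 0.0413). It was 3.25 without EcR-RNAi replicate 1 and 5.35 without replicate 2 of -6 h, and the call ended without any one of 7 of the 8 libraries (0.0640 to 0.18), the exception being EcR-RNAi replicate 2 of -6 h.

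In the higher class, the median log2 difference was 1.92 over 25 members. CG13731, the most abundant of them, was at 174 and 96.1 in wild type and 1289 and 3423 in EcR-RNAi at -6 h, and at 1014 and 224 in wild type and 29351 and 23822 in EcR-RNAi at +6 h. EcR-RNAi exceeded wild type of either stage in all its libraries. At +6 h the log2 difference was 5.79 ± 0.94 (limma adjusted p = 0.00971). It was 6.87 without wild-type replicate 1 and 4.70 without wild-type replicate 2, and the call ended without EcR-RNAi replicate 1 (0.0547) or 2 (0.0508) of +6 h.

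CG14752, which had the largest M, was at 1.94 and 4.48 in wild type and 59.5 and 405 in EcR-RNAi at -6 h, and at 62.6 and 14.7 in wild type and 2045 and 2462 in EcR-RNAi at +6 h. The EcR-RNAi libraries of +6 h stood above all others. The log2 difference at +6 h was 6.15 ± 1.19 (limma adjusted p = 0.0158), 7.16 without wild-type replicate 1 and 5.14 without replicate 2, and the call ended without wild-type replicate 2 (0.0634) or EcR-RNAi replicates 1 (0.0586) or 2 (0.0662) of that stage.

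CG16704 was at 3.87 and 5.12 in wild type and 22.4 and 180 in EcR-RNAi at -6 h, and at 64.1 and 7.34 in wild type and 1241 and 1502 in EcR-RNAi at +6 h. Its wild-type replicates at +6 h differed more than 4-fold, and EcR-RNAi lay above both. The log2 difference was 5.87 ± 1.42 (limma adjusted p = 0.0309), 7.36 without wild-type replicate 1 and 4.39 without replicate 2. The call ended without any library of wild type at -6 h (0.0707 and 0.0705), without wild-type replicate 2 of +6 h (0.0961) and without either EcR-RNAi library of +6 h (0.0955 and 0.108).

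CG6426 and CG14417 were higher with closer replicates. CG6426 was at 11.6 and 3.2 in wild type and 21.4 and 35.2 in EcR-RNAi at -6 h, and at 16.4 and 12.6 in wild type and 204 and 280 in EcR-RNAi at +6 h. CG14417 was at 3.87 and 4.48 and at 44.8 and 129 at -6 h, and at 35.8 and 30.4 in wild type and 356 and 330 in EcR-RNAi at +6 h. In both, EcR-RNAi stood above wild type at each stage with no overlap. Their log2 differences at +6 h were 3.97 ± 0.49 (limma adjusted p = 1.5e-04) and 3.34 ± 0.41 (limma adjusted p = 1.8e-04).

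CG14327 had no read in wild type at -6 h and was at 1.95 and 15.6 in EcR-RNAi at that stage, then at 7.46 and 1.05 in wild type and 73.8 and 105 in EcR-RNAi. Few reads stand behind the wild-type values, and the gene reached the mean of 10 only through EcR-RNAi at +6 h, so no test is given for it.

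Of the named members of the higher class, CG1139 (acs), an amino acid transporter-like gene, was at 0.968 and 0.641 in wild type and 40.9 and 63.1 in EcR-RNAi at -6 h, and at 4.47 and 4.2 in wild type and 60.3 and 46.4 in EcR-RNAi at +6 h. Both EcR-RNAi groups stood far above both wild-type groups, and the EcR-RNAi stages overlapped. The log2 difference between genotypes at +6 h was 3.34 ± 0.43 (limma adjusted p = 1.3e-04), and that between stages in EcR-RNAi was 0.06 ± 0.43 (limma adjusted p = 0.95).

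CG13897 (hng3) was at 43.6 and 44.2 in wild type and 186 and 195 in EcR-RNAi at -6 h, and at 101 and 96.5 and at 239 and 228 at +6 h. CG9134 (tfc) was at 72.6 and 78.2 and at 318 and 541 at -6 h, and at 535 and 343 and at 1159 and 1273 at +6 h. EcR-RNAi was above wild type at both stages in both genes. The log2 differences at +6 h were 1.23 ± 0.15 for hng3 (limma adjusted p = 6.9e-05) and, with a library left out, 1.18 to 1.82 for tfc (limma adjusted p with all libraries = 0.00555).

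CG17386 (Achl) was at 8.71 and 10.2 in wild type and 35.1 and 106 in EcR-RNAi at -6 h, and at 195 and 153 in wild type and 638 and 697 in EcR-RNAi at +6 h. CG1887 (dsb) had no read in wild type at -6 h, was at 11.7 and 45 in EcR-RNAi, and was at 127 and 56.6 in wild type and 289 and 361 in EcR-RNAi at +6 h. Both were above wild type at each stage with no overlap. Limma adjusted p values at +6 h were 0.0156 and 0.0326. The Achl call ended without any one of the 4 libraries of +6 h (0.0545 to 0.0903). The dsb call ended without either wild-type library of -6 h (0.0957 and 0.095), wild-type replicate 2 (0.168) or either EcR-RNAi library of +6 h (0.0845 and 0.137).

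The other 3 named members of this class had small differences. At +6 h, CG32068 (Adi1), an acireductone dioxygenase gene of methionine salvage, was at 107 and 97.6 in wild type and 141 and 152 in EcR-RNAi. CG31324 (Cipc) was at 31.3 and 36.7 and at 56.6 and 83.8. CG17018 (Marf1) was at 77.5 and 60.8 and at 114 and 98.6. Genotypes did not overlap in any of them. Limma adjusted p values were 0.0313, 0.0332 and 0.0469. Each call ended without wild-type replicate 2 of +6 h (0.124, 0.0698 and 0.221) and without EcR-RNAi replicate 2 of +6 h (0.149, 0.246 and 0.0969). Adi1 and Cipc also lost it without wild-type replicate 1 (0.0523 and 0.132), and Adi1 and Marf1 without EcR-RNAi replicate 1 (0.0822 and 0.225). Marf1 lost it without wild-type replicate 1 (0.0518) or 2 (0.052) or EcR-RNAi replicate 1 (0.0529) of -6 h as well.

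Some of the members lie next to each other, as 8 pairs with no other gene between them in the RefSeq order of protein-coding genes. CG13183 (reb) and CG13188 (exp), a pair of genes known for roles in organizing chitin in the embryonic trachea, form one of them. The reb gene was at 2.9 and 1.28 in wild type and 11.7 and 43.4 in EcR-RNAi at -6 h, and at 53.7 and 44.1 in wild type and 107 and 157 in EcR-RNAi at +6 h. The exp gene was at 96.8 and 117 and at 289 and 644 at -6 h, and at 2663 and 1696 in wild type and 2031 and 2129 in EcR-RNAi at +6 h. At +6 h EcR-RNAi lay above wild type for reb and inside its span for exp. The log2 differences between genotypes at +6 h were 1.40 ± 0.55 (limma adjusted p = 0.0682) and -0.03 ± 0.43 (limma adjusted p = 0.962).

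CG13739 and CG13954 are neighbours that overlap each other, so their reads are not independent. CG13739 was at 8.71 and 5.77 in wild type and 46.8 and 29.5 in EcR-RNAi at -6 h, and at 31.3 and 19.9 and at 92.3 and 97.7 at +6 h. CG13954 was at 1.94 and 5.77 and at 56.5 and 47.5 at -6 h, and at 31.3 and 21 and at 114 and 96.7 at +6 h. EcR-RNAi was above wild type at both stages for both. They were higher at +6 h by 1.88 ± 0.35 (limma adjusted p = 0.00132) and 1.99 ± 0.40 (limma adjusted p = 0.00219).

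Other neighbours went apart. CG15545 was at 324 and 151 in wild type and 49.2 and 43.4 in EcR-RNAi at +6 h, whereas CG15546 was at 118 and 99.7 and at 155 and 192. The first was lower by a log2 difference of -2.23 ± 0.43 (limma adjusted p = 0.00242) and the second was higher by 0.67 ± 0.18 (limma adjusted p = 0.0109). The call of CG15546 ended without wild-type replicate 2 (0.0691) or EcR-RNAi replicate 2 (0.109) of +6 h. Neighbouring CG13631 and CG42331 were both lower: CG13631 was at 4311 and 5412 in wild type and 750 and 844 in EcR-RNAi, a log2 difference of -2.60 ± 0.22 (limma adjusted p = 2.7e-05). CG9517 (CG45064) was lower, at 1441 and 1192 against 194 and 207, by -2.70 ± 0.22 (limma adjusted p = 6.4e-06). Its neighbour CG9518 was at 925 and 771 against 326 and 305, with a log2 difference of -1.42 ± 0.69 (limma adjusted p = 0.158).

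The last 3 pairs held no gene called against wild type at +6 h. They were CG5756 with CG34196, CG15649 with CG34115, and CG7330 with CG13699. CG5756 was at 6981 and 3658 in wild type and 1320 and 1146 in EcR-RNAi, and CG34196 at 46.2 and 26.2 against 7.38 and 9.86. CG15649 was at 19.4 and 2.1 against 41.8 and 33.5, and CG34115 at 777 and 230 against 246 and 313. EcR-RNAi lay below wild type for the first pair, above it for CG15649 and inside its span for CG34115. CG34196 reached the mean of 10 only through wild type at +6 h, and CG15649 only through EcR-RNAi at +6 h. That limit favoured the directions of CG34196 and CG15649, so nothing is read from them. CG7330 was at 385 and 258 against 119 and 120, and CG13699 at 2396 and 1990 against 817 and 837, with EcR-RNAi below wild type in both. By chromosome the 189 members were spread over X (29), 2L (29), 2R (41), 3L (34) and 3R (56), with 0 on chromosome 4. The CG genes tested numbered 626, 580, 639, 693, 855 and 17 on these chromosomes in the same order, and nothing is read from the spread.

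In 2 of the groups, replicates differed in 1 direction in most members. In EcR-RNAi at -6 h, replicate 2 was above replicate 1 for 169 of 189 members, with a median log2 difference of 0.66. Over all genes tested it was above for 4073 of 7775, with a median of 0.02. It was more than 2-fold above for 63 members and below for 2, and for 199 and 119 of all genes tested. In wild type at +6 h, replicate 1 was above replicate 2 for 141 members, with a median of 0.34, and more than 2-fold above for 43 and below for 0. Over all genes tested it was above for 3778 of 7775, with a median of -0.01, and more than 2-fold above for 163 and below for 100. The 166 named genes that meet the same limits leaned the same way, with 134 higher in replicate 2 of EcR-RNAi at -6 h and 118 higher in replicate 1 of wild type at +6 h. The medians in the remaining groups were 0.04 in EcR-RNAi at +6 h and -0.05 in wild type at -6 h. The replicate with the higher members stood nearer to wild type at +6 h on the first principal component in EcR-RNAi at -6 h (-29.5 against -44.0), and farther from the larval libraries in the wild-type prepupae (77.1 against 70.1). That component separates the wild-type stages, between which the members differ by choice. The placements and the members' levels are therefore not independent, and a cause of the replicate differences was not tested. In the EcR-RNAi libraries of -6 h, midgut markers were higher in replicate 1 (1414 against 377) and fat body markers in replicate 2 (4883 against 1994). Their part in the replicate differences of the members was not tested. Without replicate 2 of EcR-RNAi at -6 h, 164 genes met the rule, of which 152 are among the 189.

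**Figure D4:**
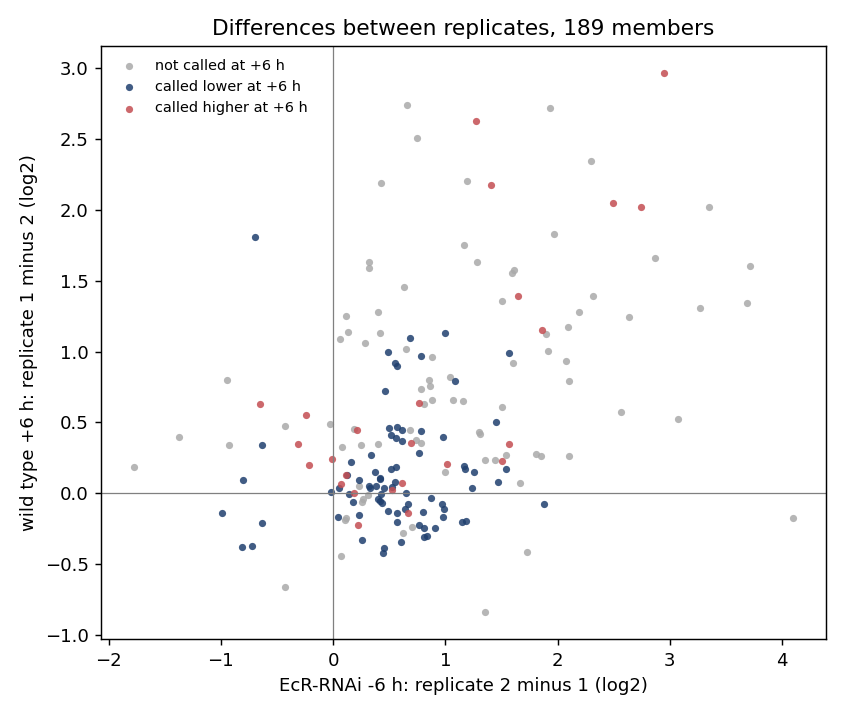
Each point is a member, placed by the log2 difference between the replicates of EcR-RNAi at -6 h (2 minus 1) and of wild type at +6 h (1 minus 2), and coloured by its call at +6 h. Points gather at the upper right, with 169 members right of zero and 141 above it, and the Spearman correlation across members was 0.37.

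Across the 189 members the Spearman correlation between these replicate differences was 0.37, and it was -0.05 across all genes tested, a description over genes that share 4 libraries. CG14752 is a member in which both were large, at 59.5 and 405 in EcR-RNAi at -6 h and at 62.6 and 14.7 in wild type at +6 h. CG9083 was at 13.6 and 148 and at 1614 and 397, and CG12164 was at 61.4 and 455 and at 4319 and 1365. In CG42331, of the lower class, replicates lay closer, at 26.3 and 29.5 and at 3581 and 3068.

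The 411 other CG genes with S of at least 1 have M under 1, which the rule fixes. At +6 h, 300 of them (73%) were lower in EcR-RNAi and 3 (0.73%) were higher by limma, against 80 (42.3%) and 25 (13.2%) of the members. In EcR-RNAi 251 (61.1%) rose with stage and 0 fell, with a median log2 difference of 0.81, against 2.26 in the members. Their EcR-RNAi level at +6 h was 49.1% of wild type in the median gene, against 49.8% in the members. The 166 genes with a name in the table that meet the same limits on S, M and the mean were lower in 49 cases (29.5%), higher in 33 (19.9%), and rose in EcR-RNAi in 100 (60.2%). Their median level at +6 h was 92.1% of wild type. These shares are set side by side without a test, since the choice of genes uses wild type at +6 h. The sets also differ in S, with medians of 4.95 in the members, 1.94 in the 411 genes and 3.29 in the 166. The stage difference in EcR-RNAi followed S, with Spearman correlations of 0.66 in the members and 0.71 in the 411 genes. The parts of S and M in the differences between the sets were not tested.

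**Figure D5:**
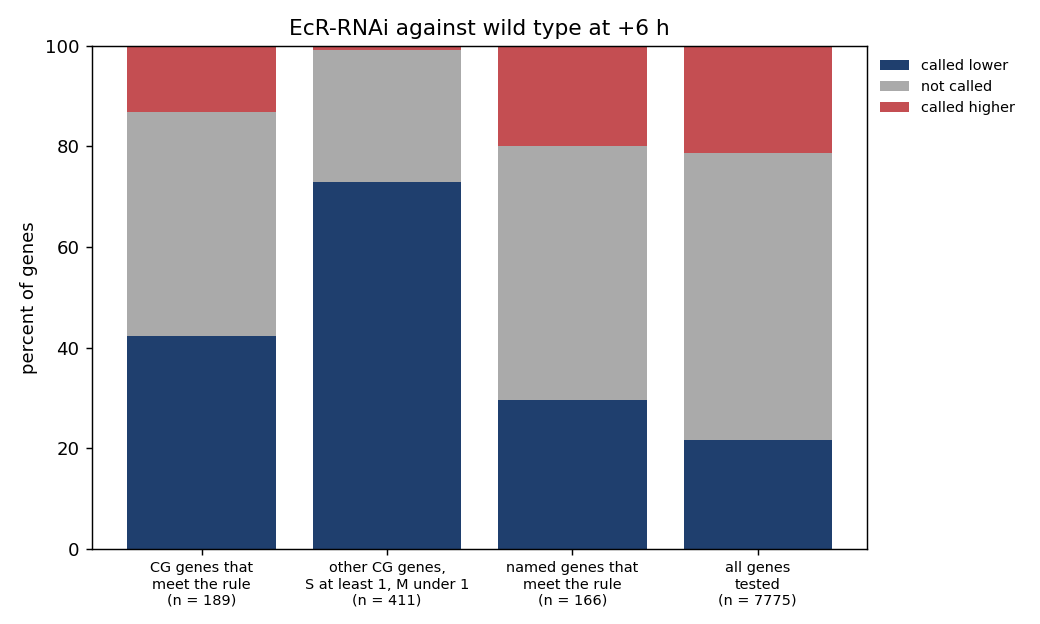
Stacked bars give the percent of genes called lower, not called and called higher in EcR-RNAi against wild type at +6 h (limma adjusted p under 0.05) in 4 sets of genes. The lower share is 42.3% in the 189 members, 73% in the other 411 stage-induced CG genes, 29.5% in the 166 named genes that meet the rule and 21.6% in all 7775 genes tested.

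Genes of the ecdysone response give the setting in which the members changed. Of 33 such genes tested, 7 were higher and 11 were lower in EcR-RNAi at -6 h by limma, with a median log2 difference of -0.12, and the count of higher genes was 3 without wild-type replicate 2 of -6 h. Of all genes tested at -6 h, 7.51% were higher and 3.36% lower in EcR-RNAi. Lower ecdysone-response genes included the early factors Eip74EF (2249 and 1885 in wild type, 1208 and 1069 in EcR-RNAi) and Eip75B (7171 and 6575, then 3807 and 3194) and the nuclear receptor Hr46 (2854 and 2589, then 1159 and 961). Genotypes did not overlap in these. Their log2 differences were -0.86 ± 0.12, -0.98 ± 0.12 and -1.36 ± 0.13, with limma adjusted p values of 8.7e-04, 4.6e-04 and 8.2e-05.

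Of the 33, 6 satisfied the limits on S and M like the members, namely Eip93F, Hr38, ftz-f1, E23, Cyp18a1 and ImpL1. Among all 7775 genes tested, the 189 members and 166 named genes did so. The prepupal nuclear receptor gene ftz-f1 was at 163 and 106 in wild type and 623 and 464 in EcR-RNAi at -6 h, and at 6359 and 4085 and at 2278 and 2069 at +6 h. The transporter gene E23 was at 325 and 340 and at 686 and 796 at -6 h, and at 4098 and 4537 and at 1956 and 2043 at +6 h. ImpL1 was at 65.8 and 91 and at 585 and 1114 at -6 h, and at 65989 and 65088 and at 8691 and 9798 at +6 h. All 3 had the group order of CG6118 without overlap. At +6 h the log2 differences were -1.11 ± 0.11 for E23 (limma adjusted p = 2.0e-05) and -2.83 ± 0.31 for ImpL1 (limma adjusted p = 5.9e-04). Cyp18a1, which encodes an enzyme that inactivates ecdysone, was at 26.1 and 30.7 and at 88.7 and 189 at -6 h. At +6 h Cyp18a1 was at 2483 and 2005 and at 1076 and 1147, and was not called between genotypes (limma adjusted p = 0.0554). Eip93F and Hr38 did not lie below wild type at +6 h. Eip93F was at 279 and 188 in wild type and 421 and 277 in EcR-RNAi, and the genotypes overlapped. Its log2 difference was 0.58 ± 0.32 (limma adjusted p = 0.181). Hr38 was at 5.97 and 5.24 in wild type and 33.2 and 29.6 in EcR-RNAi. Hr38 reached the limit on the mean only through EcR-RNAi at +6 h. Its log2 difference of 2.29 ± 0.51 is therefore given without a test.

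Genes of the apical matrix, the cuticle and the Osiris family were tested for 42 symbols. At -6 h 15 were higher and 2 lower in EcR-RNAi by limma, against 7.51% and 3.36% of all genes tested. The median log2 difference was 1.21, and 22 met the limits on S and M, as did 189 CG genes and 166 named genes among all 7775 tested. At +6 h 8 were higher, near the 21.3% of all genes tested, and 21 were lower, against 21.6%. The median there was -0.76. With stage in EcR-RNAi 29 rose and 1 fell, against 12.1% and 3.88% of all genes tested. These are named genes, counted beside the members and not among them.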

How the data were processed

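RNA was measured in 8 wing libraries, in 4 groups of 2 taken from the sample titles. The deposited signal is the normalized count: the authors divided reads per gene by a size factor for each library. The values show this, since whole reads were recovered for 100% of them (tolerance 0.1 read), and the test of those reads with edgeR 4.0.16 called 94 members lower and 24 higher at +6 h and 127 higher with stage in EcR-RNAi. Per the submitters' processing notes, STAR 2.5.2b, SAMtools 1.3.1, Subread 1.24.2, DESeq2 1.14.1 and build dm3 were used, without roles or settings. The table has 15240 genes, 3291 without a read. Neither the deposited comparisons nor the peak lists were used.

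Genes with a mean of at least 10 (7775) entered limma 3.58.1, run in R 4.3.3 (trend and robust) on log2(normalized count + 1), which understates changes of low genes, in a fit of 4 group means to all 8 libraries, with Benjamini-Hochberg adjustment over all genes tested and calls under 0.05. Levels are normalized counts, replicate 1 first, and are not comparable between genes of different length. The value after ± is a standard error. Comparisons were EcR-RNAi against wild type at each stage and +6 h against -6 h in EcR-RNAi. The fit was tested on simulated counts, and the outcome is not used as support here. Replicates differed by more than read counting gives (6.85 to 32.1 for chi-square over its degrees of freedom), and each library counted as 1 sample. A floor of 3 reads covers counting error only.

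Members and gene lists were chosen with earlier results of these data known. Genes named are members with the highest mean, M or S (10 each), the 5 largest called changes in each direction per test, adjacent members, members whose replicates differ over 4-fold and those at each limit; other members with a RefSeq name were added after seeing values. Not every gene so listed is printed. RefSeq Release 6 gave names and neighbours only. Alternatives were a pseudocount of 8, upper-quartile and quantile scaling, no filter, limma without trend, a replicate block, the compared libraries alone, each library left out (the lone library of its group is then assumed to vary like the other groups), edgeR and DESeq2 1.42.0 and, for the rule, a mean of 50 and limits of 1.5.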

Additional observations from a re-analysis of the deposited data

Results flagged for a closer look

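In 2 members both wild-type libraries were higher at +6 h than at -6 h while both EcR-RNAi libraries were lower at +6 h than at -6 h. CG14526 (Nepl21) had S of 2.13 and a log2 difference between stages in EcR-RNAi of -1.57 ± 0.57. CG12519 had S of 1.15, and in EcR-RNAi a log2 difference of -0.55 ± 0.40, with a limma adjusted p of 0.419. S chose both genes, M raises their level in EcR-RNAi at -6 h by choice, and the difference between the genotypes was not tested.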

How the results depend on the processing

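The rule gave 189 genes, 125 with limits of 1.5 on S and M, 127 with a pseudocount of 8, 129 with quantile scaling and 164 to 218 with a library left out. With a library left out, members called higher with stage in EcR-RNAi ran from 77 to 135, those called lower with stage from 0 to 1 (1 also under quantile scaling), those higher than wild type at +6 h from 12 to 31, and ecdysone-response genes higher at -6 h from 3 to 8. Fewer libraries of a compared group leave fewer replicates; beyond that the cause was not tested. Members lower than wild type at +6 h ran from 59 to 95. With the replicate block, 122 members were higher with stage in EcR-RNAi, and 23 were higher and 78 lower than wild type at +6 h, so the pairing of replicate numbers moved no count by 1.5 times. The call at +6 h of CG9411 (limma adjusted p = 0.0615), CG16704 (0.0702) and CG15212 (0.0797), and the stage rise of CG9411 (0.0504), CG1136 (0.0587), CG13188 (0.0594), CG14397 (0.0796), CG2150 (0.084) and CG5756 (0.0895), ended with the replicate block. Same-numbered libraries of a comparison deviated with correlations of -0.05 to 0.13 across genes, and the labels tie the numbers to no shared animal or day. DESeq2 called 149 higher with stage, and 27 higher and 94 lower at +6 h. Calls that held in limma and in every alternative covered 57 lower and 12 higher members at +6 h and 66 stage rises. Of 119 calls among 109 genes, 66 held in every alternative, and none changed sign. They cover both tests for the 91 members named by rule or by RefSeq. The ecdysone-response genes called between genotypes at -6 h make up the rest. Among values not called, 17 changed sign. With a library left out, the difference at +6 h ran from -0.39 to 0.89 for CG11073, -2.04 to 0.17 for CG1136, -0.58 to 0.77 for CG11382, -0.36 to 0.29 for CG13188, -1.14 to 0.17 for CG14397, -0.94 to 0.34 for CG14636, -0.07 to 0.42 for CG15828, -1.30 to 0.88 for CG16886, -0.79 to 0.81 for CG17127, -0.75 to 0.01 for CG17181, -1.02 to 0.15 for CG2150, -0.17 to 0.63 for CG2781, -0.87 to 0.68 for CG30101, -1.48 to 0.27 for CG34115, -0.18 to 0.63 for CG5928 and -0.71 to 2.03 for CG6836. For the stage difference of CG1139 in EcR-RNAi the range was -0.25 to 0.36. Upper-quartile scaling gave -0.08 for CG1139, 0.12 for CG13188 and 0.06 for CG30101, and quantile scaling gave -0.12, 0.25 and 0.21 for these and -0.03 for CG15828. edgeR and DESeq2 gave -0.02 and -0.06 for CG11382 and -0.17 and -0.21 for CG17127. The cause was not tested. Wild-type counts at -6 h were the limit of depth, with 12 members at 0 reads and 23 at 1 to 3 reads there.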
